A study of Mus musculus with 45 samples.

Results

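The oligodendrocyte lineage transcription factors described here are 8 genes: Olig1, Olig2, Sox10, Sox8, Sox6, Nkx2-2, Zfp488 and Nkx6-2. They were chosen by symbol, and the rule that defines them uses no measured value. Of the 8 genes, 7 had at least 1 probe set (a group of short probes on the array that reads a single transcript) matched to their symbol alone, out of 17097 genes measured. Where a gene had several probe sets, the one with the highest mean over the 45 arrays gave the gene's value. Zfp488 had no probe set in the annotation used and has no value here. All 7 measured genes passed the filter on low values, as did 11809 genes in all.

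The 45 arrays measured RNA from the brain of CD-1 nude mice carrying a glioblastoma model, and every group lacked p53. The series' design text describes retroviral constructs for the receptor PDGFRA, unmutated or in 1 of 6 mutant forms, and astrocytes cultured from p53-null mice as their host cells. Mutant groups were Pdgfra V544ins and Pdgfra E10 del.v2 with 9 arrays each, Pdgfra C450 ins, Pdgfra D842V and Pdgfra E10 del with 5 each, and Pdgfra E7 del with 3. EGFRvIII, a truncated and constantly active form of the epidermal growth factor receptor, gave 8 arrays, and Pdgfra WT gave 1 array, which entered no test. The promoter of the constructs, how EGFRvIII was introduced and the age of the mice are not given in the sources used here. Nude mice lack T cells, so tumours grow in them without T cell responses. Total RNA was extracted with Trizol, and 100 ng of it was labelled for each array. Nothing in the labels says that arrays of a group came from separate animals or cultures, so p-values measure only the spread between these samples.

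Olig1 and Olig2 are basic helix-loop-helix factors that specify and maintain oligodendrocyte progenitors, and Olig2 is also made by most diffuse gliomas. Sox10 and its relative Sox8 are SoxE factors that act with Olig2 to drive oligodendrocyte differentiation and myelin genes, whereas Sox6, a SoxD factor, holds progenitors in an undifferentiated state. Nkx2-2 and Nkx6-2 are homeodomain factors that pattern the ventral neural tube, Nkx2-2 later timing differentiation and Nkx6-2 being enriched in myelinating cells, and Zfp488 is a zinc finger cofactor of Olig2. PDGFRA is itself the growth factor receptor that defines oligodendrocyte progenitors in the brain.

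The windows upstream of 4 of the genes are shown as those of Olig2, Nkx2-2 and Sox8, whose signals moved together across arrays, and of Nkx6-2, whose signal did not pass a test of moving with them by Pearson's r. RefSeq's promoter table (build GRCm38.p6) held 11 windows for 6 of the 8 genes, and each window was read over the 250 bases before the annotated start. Capitals mark the letters of the motifs searched on both strands: the E-box CANNTG bound by helix-loop-helix factors such as Olig1 and Olig2, the Sox sites ACAAAG and ACAATG, and the TATA box TATAAA. The Olig2 window is chr16:91225300-91225549 on the plus strand, the Nkx2-2 window chr2:147186403-147186652 on the minus strand, the Sox8 window chr17:25570687-25570936 on the minus strand and the Nkx6-2 window chr7:139582798-139583047 on the minus strand.
Olig2: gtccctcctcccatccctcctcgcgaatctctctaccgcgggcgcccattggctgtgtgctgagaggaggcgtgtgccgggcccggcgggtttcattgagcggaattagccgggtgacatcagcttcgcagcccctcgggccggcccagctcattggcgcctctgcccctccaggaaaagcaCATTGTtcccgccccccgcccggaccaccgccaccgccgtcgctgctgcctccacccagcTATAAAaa
Nkx2-2: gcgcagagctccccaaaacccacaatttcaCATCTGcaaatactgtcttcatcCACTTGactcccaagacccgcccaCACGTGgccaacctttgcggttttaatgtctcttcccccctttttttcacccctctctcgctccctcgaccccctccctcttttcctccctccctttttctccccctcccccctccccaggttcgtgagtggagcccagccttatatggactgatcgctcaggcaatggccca
Sox8: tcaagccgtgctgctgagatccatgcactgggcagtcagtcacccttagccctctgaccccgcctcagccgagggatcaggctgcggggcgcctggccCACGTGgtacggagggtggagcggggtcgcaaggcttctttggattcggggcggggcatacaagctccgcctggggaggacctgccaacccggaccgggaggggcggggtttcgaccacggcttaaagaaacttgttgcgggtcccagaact
Nkx6-2: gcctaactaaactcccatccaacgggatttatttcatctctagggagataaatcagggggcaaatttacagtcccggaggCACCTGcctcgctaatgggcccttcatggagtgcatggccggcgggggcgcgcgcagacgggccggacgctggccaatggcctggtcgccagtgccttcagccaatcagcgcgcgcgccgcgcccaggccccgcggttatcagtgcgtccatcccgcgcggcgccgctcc

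The Nkx2-2 window held 3 E-boxes, whose first bases lay at positions -220, -197 and -173 from the start. The Sox8 window held 1 at -152 and the Nkx6-2 window 1 at -170, while the Olig2 window held none. Olig2 instead had an ACAATG match, read on the opposite strand, at -68 and a TATAAA match at -8. None of these matches overlapped another. All 6 windows of Sox6, which has several starts, held an E-box and 5 of them held a Sox site, and the Zfp488 window held none of the motifs. Of 32851 windows of the same length in the table, 66.2% held CANNTG, 16.5% ACAAAG, 10.7% ACAATG and 12.4% TATAAA, so a match describes the letters and marks no bound site.

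All values are log2 signals, in which a difference of 1 is a doubling, and levels of different genes are not set against each other because each probe set has its own sensitivity. The helix-loop-helix pair was detected throughout: Olig1 and Olig2 lay above the median of the whole table, 4.79, on 45 of 45 arrays. Olig1 had group means from 11.82 ± 1.21 (SD, n = 5) in E10 del to 12.97 ± 0.84 (n = 3) in E7 del, and the WT array read 13.35. Olig2 ran in the same order of genotypes, from 8.93 ± 1.75 (n = 5) in E10 del to 10.66 ± 1.04 (n = 3) in E7 del, with 11.02 on the WT array. For both genes the second lowest mean belonged to EGFRvIII, 12.27 ± 1.08 for Olig1 and 9.89 ± 1.45 for Olig2 (n = 8).

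Olig2 showed best how unevenly arrays of a genotype were spread. The 5 E10 del arrays, in replicate order, read 7.53, 7.76, 7.68, 10.94 and 10.75. The 5 C450 ins arrays read 9.89, 10.57, 10.81, 11.28 and 10.62, and the 5 D842V arrays 9.0, 10.47, 10.58, 10.30 and 10.45. The 3 E7 del arrays read 9.46, 11.24 and 11.29. E10 del therefore fell apart into 3 low and 2 high arrays with a gap of about 3 log2 units, whereas C450 ins and D842V kept within a range of 1.39 and 1.58. Among the larger groups, V544ins had a lowest value of 9.69, a median of 10.30 and a highest of 11.54. E10 del.v2 had a lowest value of 7.19, a median of 10.85 and a highest of 11.43. In E10 del.v2 the other 8 arrays lay between 10.54 and 11.43, so that a single array, replicate 2, stood far below its group.

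**Figure D1:**
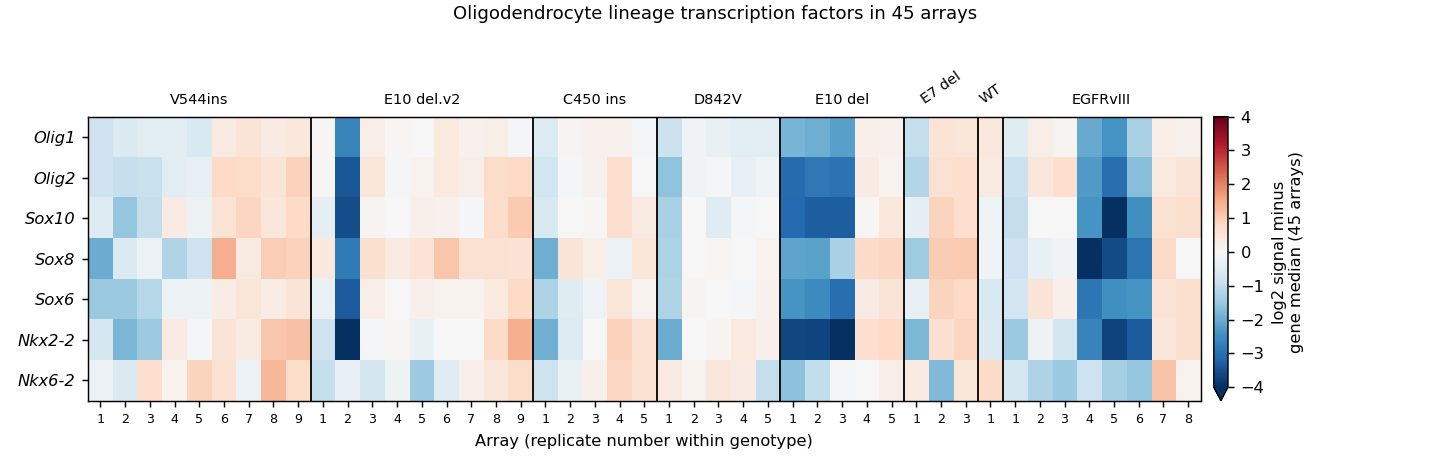
Log2 signal of the 7 measured transcription factors (rows) on each of the 45 arrays (columns, grouped by genotype and numbered by replicate), as the difference from that gene's median over all arrays; blue is lower and red higher. Replicates 4, 5 and 6 of EGFRvIII, replicates 1, 2 and 3 of E10 del and replicate 2 of E10 del.v2 form blue columns through the upper 6 rows, while Nkx6-2 does not follow.

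The Sox factors had the same lowest pair of genotypes. Sox10 means ran from 9.02 ± 1.90 (n = 5) in E10 del and 9.73 ± 1.87 (n = 8) in EGFRvIII to 11.28 ± 0.66 (n = 3) in E7 del, with 10.70 on the WT array. Its E10 del arrays read 7.77, 7.58, 7.57, 10.92 and 11.29, again in 2 sets that did not overlap. Sox8, the closest relative of Sox10 on the list, was lowest in EGFRvIII at 8.29 ± 2.03 (n = 8), followed by E10 del at 8.98 ± 1.49 (n = 5), and highest in E10 del.v2, where the SD was 1.16 around a median of 10.34 (n = 9). The WT array read 9.62 for Sox8. Its E10 del arrays read 7.65, 7.64, 8.47, 10.55 and 10.61, its D842V arrays 8.5, 9.75, 9.84, 9.75 and 9.92, and its C450 ins arrays 7.83, 10.28, 10.02, 9.54 and 10.26. In D842V and C450 ins replicate 1 was the lowest array, and in E10 del replicates 1, 2 and 3 again lay below replicates 4 and 5. Sox6, the progenitor factor, ran from 8.66 ± 1.70 (n = 5) in E10 del and 9.25 ± 1.52 (n = 8) in EGFRvIII to 10.54 ± 0.68 (n = 3) in E7 del, with 9.48 on the WT array.

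The homeodomain factors differed from each other in pattern. Nkx2-2 means ran from 7.06 ± 2.49 (n = 5) in E10 del and 7.65 ± 1.70 (n = 8) in EGFRvIII to 8.96 ± 1.07 (n = 9) in V544ins, with 8.45 on the WT array. Its E10 del arrays read 5.41, 5.37, 4.95, 9.70 and 9.84, the widest split of that genotype among the 7 genes. Its C450 ins arrays read 7.11, 8.49, 9.06, 9.95 and 9.63, its D842V arrays 7.06, 9.05, 9.14, 9.44 and 9.25, and its E7 del arrays 7.24, 9.68 and 9.88. Nkx2-2 lay above the table median on 44 of 45 arrays. Nkx6-2, the factor of myelinating cells, lay above it on 24 of 45, with means from 4.16 ± 0.93 (n = 8) in EGFRvIII to 5.26 ± 0.63 (n = 9) in V544ins and 5.67 on the WT array. Its readings on the other 21 arrays therefore lay in the dim part of the table.

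When the genotypes with replicates were ordered by mean for each gene, none of the 42 pairs of neighbours in the order differed by more than the larger of their SDs. Neighbours are the closest pairs of an order, so this count does not describe genotypes farther apart. From E7 del, the highest, to E10 del, the lowest, Sox10 means lay 2.25 apart, above the larger SD of 1.90. Olig2 means lay 1.73 apart between the same genotypes, below the larger SD of 1.75. The order itself was similar for Olig1 and Olig2 and changed for the others. E10 del was lowest for Olig1, Olig2, Sox10, Sox6 and Nkx2-2, and EGFRvIII was lowest for Sox8 and Nkx6-2.

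**Figure D2:**
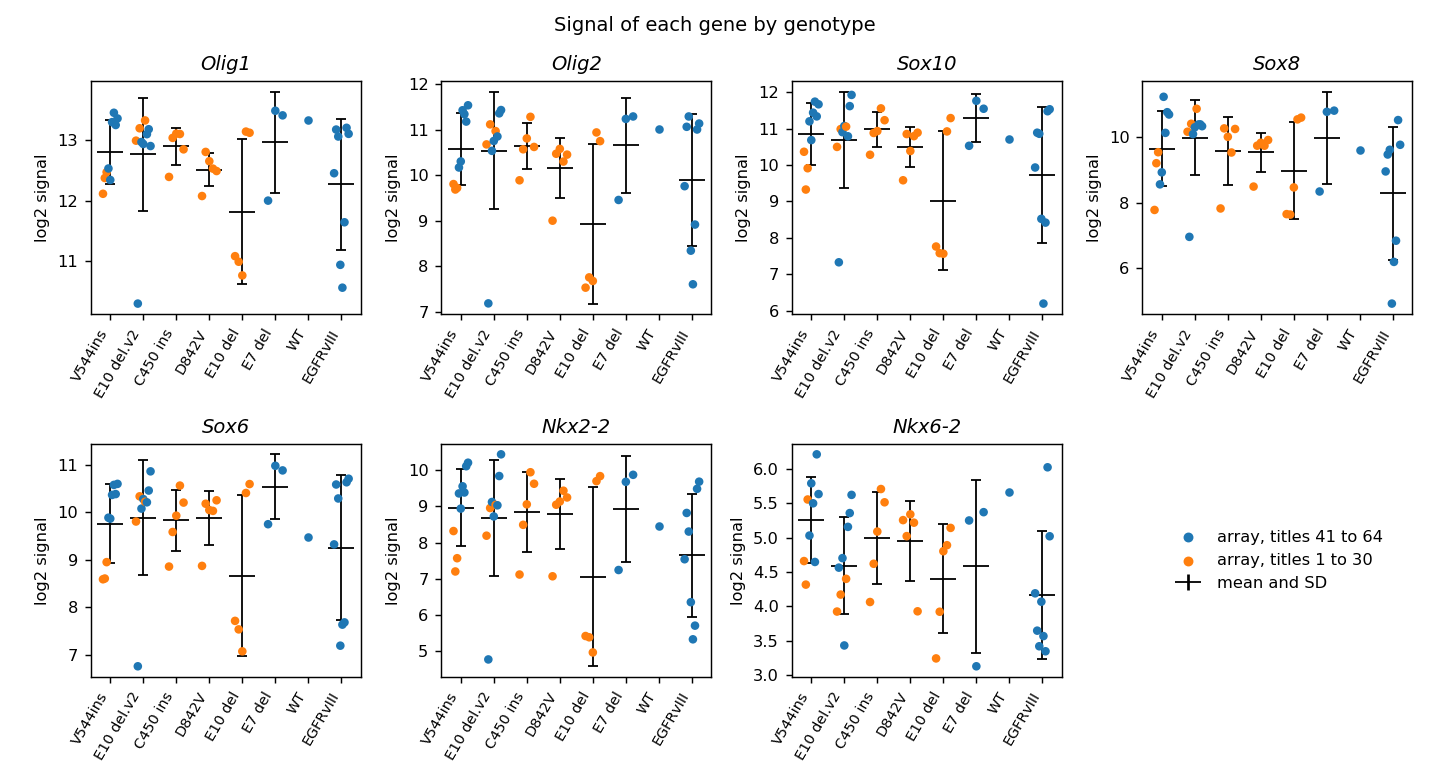
Log2 signal (vertical axis) of each gene by genotype (horizontal axis); each point is an array, coloured by the range of its sample title number, and bars give the mean and SD. E10 del splits into 3 low and 2 high arrays with a wide gap for every gene but Nkx6-2, and EGFRvIII has 3 low arrays for every gene but Nkx6-2.

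Between the 8 EGFRvIII arrays the factors ranged over 2.65 log2 units for Olig1 and 5.61 for Sox8. Olig2 read 9.76, 11.06, 11.29, 8.34, 7.61, 8.92, 11.01 and 11.14 in replicate order. Sox10 read 9.93, 10.89, 10.86, 8.52, 6.20, 8.42, 11.47 and 11.53. Sox8 read 8.96, 9.48, 9.62, 4.92, 6.19, 6.84, 10.53 and 9.77. For all 3 genes replicates 4, 5 and 6 were the lowest of the group, with replicate 1 next. Nkx2-2 read 7.54, 8.82, 8.30, 6.35, 5.32, 5.69, 9.49 and 9.69. Sox6 read 9.32, 10.59, 10.29, 7.19, 7.63, 7.68, 10.63 and 10.71. Olig1 read 12.46, 13.18, 13.07, 10.94, 10.56, 11.64, 13.21 and 13.11. These 3 genes showed the same division, replicates 4, 5 and 6 below the other 5 without overlap. Nkx6-2 read 4.19, 3.65, 3.42, 4.07, 3.57, 3.35, 6.03 and 5.02, so that replicates 7 and 8 were high and replicates 4, 5 and 6 lay among the rest.

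The low arrays were the same for most of the genes. The same 7 of the 45 arrays were lowest for Olig1, Olig2, Sox10, Sox6 and Nkx2-2. They were replicates 4, 5 and 6 of EGFRvIII, replicates 1, 2 and 3 of E10 del and, from E10 del.v2, replicate 2; the last 4 are called the 4 E10 arrays below. On these 7 arrays Olig1 read at most 11.64, below each of the other 38. Sox6 read at most 7.71 against at least 8.59, and Nkx2-2 at most 6.35 against at least 7.06. Olig2 was less cleanly parted, at most 8.92 against at least 9.0 on D842V replicate 1. For Sox8, 6 of the 7 arrays were among its 7 lowest, the remaining place being taken by V544ins replicate 1 at 7.78, and for Nkx6-2 only 3 were. Since these arrays are picked out by the genes' own values, the division is a description and was not tested.

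The 7 arrays were of more than 1 kind in the other cell types they held. A list of neuron markers, of which 9 of 10 were measured, had means of 10.34 to 11.74 on the 4 E10 arrays, against 6.80 to 8.88 on EGFRvIII replicates 4, 5 and 6 and 4.19 to 10.98 on the other 38 arrays. Fibroblast and mesenchymal markers, 7 of 7 measured, had means of 4.01 to 6.33 on the E10 arrays and 6.07 to 7.40 on the 3 EGFRvIII arrays. Microglia and macrophage markers, 8 of 8 measured, had means of 6.96 to 8.06 and 8.19 to 8.98. For both lists the EGFRvIII values lay within the range of the other 38 arrays, 4.04 to 8.71 and 7.39 to 9.20. Astrocyte markers, 8 of 8 measured, overlapped, 8.78 to 9.84 against 7.78 to 9.43, with 6.90 to 9.98 on the other 38 arrays. Endothelium markers, 5 of 5 measured, had means of 5.73 to 6.11 on the E10 arrays and 6.205 to 6.86 on the 3 EGFRvIII arrays. On the other 38 they ran from 4.94 to 6.54, so EGFRvIII replicates 4 (6.86) and 5 (6.75) lay above every other array. As a measure of RNA quality, the Actb signal at the 3' end exceeded that at the 5' end by 0.70 to 1.19 on the E10 arrays, 0.48 to 0.64 on the EGFRvIII arrays and 0.43 to 0.87 on the other 38. Genes of oligodendrocyte progenitors, 9 of 12 measured, were low on all 7, with means of 6.99 to 8.02 and 5.84 to 8.05 against 8.37 to 11.09 elsewhere. In a bulk sample fewer cells of a type and less RNA per cell cannot be told apart. The part of neuronal, mesenchymal, endothelial or immune RNA and of RNA quality in these low readings was not tested.

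**Figure D3:**
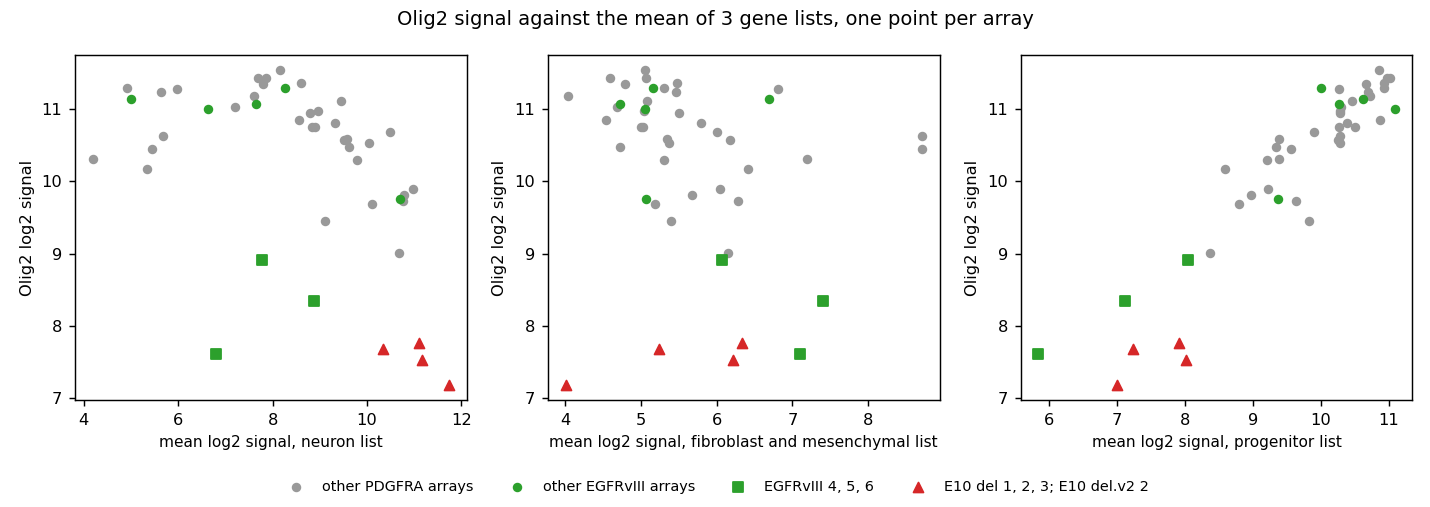
Log2 signal of Olig2 (vertical axes) against the mean log2 signal of the neuron, fibroblast and mesenchymal, and progenitor lists (horizontal axes) on 45 arrays, one point per array. The 4 E10 arrays (triangles) lie at neuron means of 10.34 to 11.74 and the 3 EGFRvIII arrays (squares) at 6.80 to 8.88, whereas both kinds lie at progenitor means of at most 8.05.

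Low readings of Olig2 beside a high neuron list also occurred on single arrays of other genotypes, though not on every such array. D842V replicate 1 and C450 ins replicate 1 had neuron means of 10.69 and 10.98 and the lowest Olig2 of their groups, 9.0 and 9.89. EGFRvIII replicate 1, with a neuron mean of 10.69, read 9.76 for Olig2, below the 4 EGFRvIII arrays with values over 11. E7 del replicate 1 had a neuron mean of 9.11 against 5.63 and 4.92 on replicates 2 and 3, and was the lowest of its group for each gene but Nkx6-2, which was lowest on replicate 2 at 3.13. E10 del.v2 replicate 1, with a neuron mean of 10.49, read 10.68 for Olig2, within the range of its group. V544ins replicates 4 and 5 had neuron means of only 5.35 and 4.19 and read 10.17 and 10.30 for Olig2, below replicates 6 to 9 of that genotype, whose neuron means were 7.60 to 8.15 and whose Olig2 read 11.18 to 11.54.

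Setting the mutants against EGFRvIII asks whether the factors differ between tumours driven by either receptor. None of the 7 genes passed the test, limma's moderated test with Benjamini-Hochberg adjustment over 11809 genes at an adjusted p under 0.05, where 8.9% of all genes tested were called, 3.55% higher and 5.35% lower in the mutants. At an unadjusted p under 0.05 the count was 2 of 7, Sox8 and Nkx6-2, and 27.5% of all genes; no other tool was run. All 7 differences were above 0, with a median of 0.64 against -0.02 over all genes tested. In the same comparison the 9 tested neuron markers had a higher median, 0.845, with none called. Medians of the other cell type lists ran from -0.35 (endothelium) to 0.13 (astrocyte). Sox8 differed most, by 1.34 ± 0.52 (SE of the fit), or 2.52-fold, with an adjusted p of 0.0951 and all 6 mutant means above EGFRvIII. Nkx6-2 differed by 0.64 ± 0.30 (adjusted p = 0.159), also with 6 of 6 means above. For the other 5 genes 5 of 6 mutant means were above EGFRvIII, E10 del being below. Nkx2-2 differed by 0.90 ± 0.59 (adjusted p = 0.323) and Sox10 by 0.82 ± 0.50 (adjusted p = 0.277). Sox6 differed by 0.50 ± 0.44 (adjusted p = 0.461), Olig2 by 0.36 ± 0.45 (adjusted p = 0.614) and Olig1 by 0.36 ± 0.32 (adjusted p = 0.466).

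These differences rested on a few arrays. Without EGFRvIII replicates 4, 5 and 6, left out because earlier results of these data showed them to stand apart, 6 of the 7 turned below 0. For those 6 genes these were the lowest arrays of EGFRvIII, so leaving them out could only lower the differences. Olig2 then differed by -0.60 ± 0.49, Sox6 by -0.55 ± 0.47, Sox10 by -0.38 ± 0.50, Olig1 by -0.37 ± 0.34, Nkx2-2 by -0.22 ± 0.67 and Sox8 by -0.047 ± 0.51, none of them called. Nkx6-2 stayed above 0 at 0.34. The call for Sox8 also turned on single choices: it was higher in the mutants by 1.66 ± 0.54 without EGFRvIII replicate 7 (adjusted p = 0.0402), by 1.58 ± 0.49 with the neuron list as a covariate (adjusted p = 0.0346) and by 1.66 without the 4 E10 arrays (adjusted p = 0.0334), the last chosen after seeing the data. Nkx6-2 was called as well without EGFRvIII replicate 7, at 0.90 ± 0.29 (adjusted p = 0.0381). Over all genes 1318 were called without replicate 7, 1268 with the covariate and 763 without the 4 E10 arrays, against 1051 with all arrays. Titles 41 to 64, with 24 arrays, are the only range that holds EGFRvIII, and they hold no C450 ins, D842V or E10 del array. There the mean of V544ins, E10 del.v2 and E7 del was set against EGFRvIII. Sox8 differed by 1.64 and Nkx2-2 by 1.41, and none of the 7 factors was called, against 80 of all genes.

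**Figure D4:**
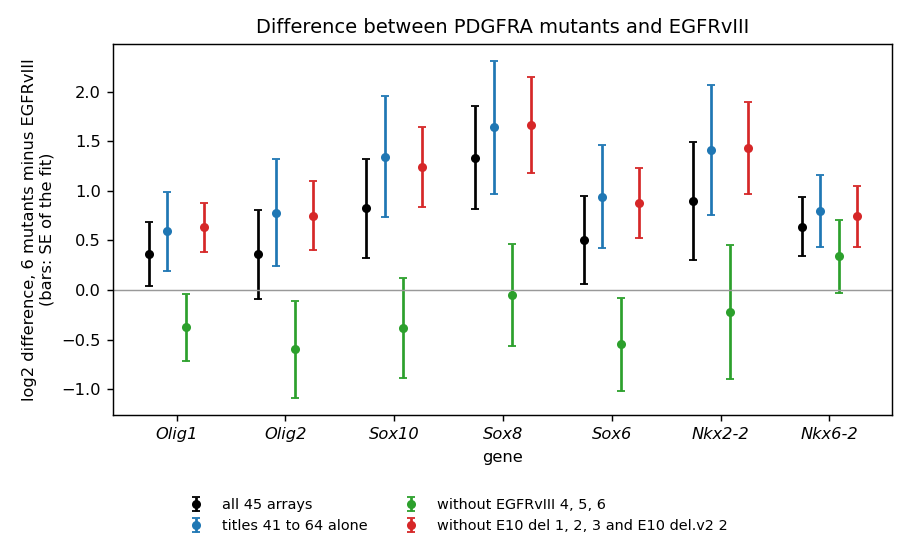
Log2 difference between the PDGFRA mutants and EGFRvIII (vertical axis, bars are the SE of the fit) for each gene (horizontal axis) under 4 choices of arrays. The choice of titles 41 to 64 alone holds only V544ins, E10 del.v2 and E7 del of the mutants, and the other choices hold all 6. With all 45 arrays the differences run from 0.36 to 1.34; without EGFRvIII replicates 4, 5 and 6 (green) they run from -0.60 to 0.34.

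Among the 6 mutants, limma's moderated F test called none of the 7 genes, with adjusted p from 0.361 to 0.882, where 0.576% of all genes were called; 0 of the 7 had an unadjusted p under 0.05, against 18.2% of all genes. E10 del set against the mean of the other 5 mutants gave the widest differences. All 7 were below 0 and 0 were called, where 0.796% of all genes were called, 0.195% higher and 0.601% lower, and 5 of 7 had an unadjusted p under 0.05 in limma's test, as did 27.7% of all genes. Sox10 differed by -1.83 ± 0.61 (adjusted p = 0.0809), Nkx2-2 by -1.79 ± 0.73 (adjusted p = 0.122) and Olig2 by -1.58 ± 0.55 (adjusted p = 0.089). Sox6 differed by -1.31 ± 0.55 (adjusted p = 0.125) and Olig1 by -0.97 ± 0.39 (adjusted p = 0.121), while Sox8 was at -0.77 ± 0.65 (adjusted p = 0.42) and Nkx6-2 at -0.48 ± 0.37 (adjusted p = 0.378).

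The E10 del result followed the split of that genotype into replicates 1, 2 and 3 and replicates 4 and 5. Leaving out replicate 4 brought the first 5 of these genes past the threshold, Olig2 at -2.09 (adjusted p = 0.0261) and Nkx2-2 at -2.45 (adjusted p = 0.0375), and leaving out replicate 5 did the same for the same 5 genes. Over all genes 1614 and 1653 were then called, against 94 with all arrays. Without E10 del.v2 replicate 2, Sox10 was called at -1.92 (adjusted p = 0.0359) and Olig2 at -1.67 (adjusted p = 0.0362), and without EGFRvIII replicates 4, 5 and 6, Sox10 alone (adjusted p = 0.0483), with 886 and 313 genes called in all. Without the 4 E10 arrays, a choice made after seeing the data, the differences of the 5 genes were above 0, from 0.16 for Sox10 to 0.83 for Nkx2-2, with an adjusted p of 1 for each. With the neuron list as a covariate Nkx2-2 differed by -0.92 and Sox6 by -0.71, and with the mean of all 3 probe sets of the gene Sox10 differed by -1.20.

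The other mutants gave no call for these genes. For V544ins, E10 del.v2 and C450 ins, each against the other mutants, 0% of all genes were called by limma, for D842V 0.584% (0.313% higher and 0.271% lower) and for E7 del 0.356% (0.119% higher and 0.237% lower). None of the 7 genes had an unadjusted p under 0.05 in any of these 5 comparisons. Over all genes the share at that threshold was 4.44% for V544ins, 6.01% for E10 del.v2, 3.66% for C450 ins, 11.7% for D842V and 17% for E7 del. The largest difference was Sox6 in E7 del, 0.93 ± 0.68 (adjusted p = 0.467), followed by Sox10 in E7 del, 0.87 ± 0.76 (adjusted p = 0.545). In V544ins the largest was Nkx6-2, 0.56 ± 0.30 (adjusted p = 1).

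Sample titles carry numbers that fall into 2 ranges, and the labels do not say that these are batches. C450 ins, D842V and E10 del lie wholly in titles 1 to 30, and EGFRvIII, E7 del and WT wholly in titles 41 to 64. V544ins and E10 del.v2 have 3 arrays numbered up to 30 and 6 numbered from 41. In V544ins the factors differed between the ranges without overlap for 4 of the genes. How many of all genes parted in the same way was not counted, so this describes the values only. Sox6 was 8.71 ± 0.20 (n = 3) in titles 1 to 30 and 10.28 ± 0.33 (n = 6) in titles 41 to 64, and Nkx2-2 was 7.69 ± 0.57 and 9.60 ± 0.49. Sox10 was 9.87 ± 0.52 and 11.34 ± 0.38, and Olig2 9.74 ± 0.06 and 10.99 ± 0.60. The neuron list ran the other way, 10.55 ± 0.38 and 6.83 ± 1.64, and the 2 sets did not overlap. In E10 del.v2 the ranges overlapped, Sox6 being 10.12 ± 0.28 (n = 3) and 9.77 ± 1.5 (n = 6).

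Over both genotypes the upper range minus the lower gave 0 called genes by limma among the 7, where 0% of all genes were called; 1 of 7, Nkx6-2, had an unadjusted p under 0.05 at a difference of 0.63 ± 0.29 (adjusted p = 0.203), as did 23.2% of all genes. Nkx2-2 differed by 0.91 ± 0.62, Sox10 by 0.62 ± 0.52 and Sox6 by 0.61 ± 0.48. Without E10 del.v2 replicate 2 these 3 were called, at 1.32 (adjusted p = 0.00973), 0.96 (adjusted p = 0.0131) and 0.93 (adjusted p = 0.0105), while 2933 genes were called in all. With the neuron list as a covariate they were -0.051, -0.17 and -0.18. Whether the range difference itself differed between V544ins and E10 del.v2 was not tested.

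Whether the factors moved together within genotypes was asked by taking each array's deviation from its genotype mean. The 36 mutant arrays fell into separate clusters, so values are given over the 32 that remain without the 4 E10 arrays, a set chosen after seeing the data. All 15 pairs among the 6 factors other than Nkx6-2 were related, with Pearson's r from 0.60 to 0.93 and Spearman's rho from 0.62 to 0.93. The share of all gene pairs that would pass the same test was not computed. The count therefore does not show a trait particular to these factors. The highest adjusted p was 0.00618 for r and 0.00249 for rho, by permutation of arrays within genotypes (100000 resamples, 2-sided), adjusted over a family of 28 relations. The smallest p that these permutations can give is 1e-05. Leaving out the 2 arrays farthest from the median of the x axis kept r between 0.62 and 0.95. The tightest pairs were Sox10 with Sox6 at 0.93, Sox6 with Nkx2-2 and Olig2 with Sox6 at 0.92, and the loosest was Sox10 with Sox8 at 0.60. Sox8 followed Olig1 most closely, at 0.89.

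Nkx6-2 had lower values of r with the other factors, though no test compared them with those of the other pairs. It lay above the table median on only 24 of 45 arrays, and the part of this dim signal was not tested. The 6 pairs of Nkx6-2 had r from 0.05 with Olig1 to 0.37 with Nkx2-2. None passed by r in the permutation test (lowest adjusted p = 0.115), though Nkx2-2 passed by rho at 0.46 (adjusted p = 0.0283). Over all 36 mutant arrays 0 of the 6 passed by r and 2 by rho. Within titles 1 to 30 (18 of the 32 arrays) 10 of the 15 pairs of the other 6 factors passed by r, from 0.42 to 0.93, and 6 of 15 by rho, from 0.15 to 0.87. Within titles 41 to 64 (14 arrays) 13 of 15 passed by r, from 0.64 to 0.96, and 13 by rho, from 0.55 to 0.93. The signal of the neuron list varied between the arrays, and 4 factors ran against the neuron list over the 32 arrays: Sox6 at -0.70 (adjusted p = 0.00129), Nkx2-2 at -0.69 (adjusted p = 0.00096), Sox10 at -0.62 (adjusted p = 0.00229) and Olig2 at -0.52 (adjusted p = 0.0237), with rho of -0.72, -0.71, -0.65 and -0.54. After leaving out the 2 farthest arrays these were -0.63, -0.62, -0.63 and -0.41. Within the title ranges no relation with the neuron list passed: r ran from -0.74 to -0.10 in titles 1 to 30 and from -0.36 to 0.08 in titles 41 to 64. In titles 1 to 30 the values were close to those over the 32 arrays, -0.74 for Sox6, -0.68 for Nkx2-2 and -0.62 for Sox10, each with a permutation adjusted p of 0.0666, and -0.57 for Olig2. With the E10 arrays of that range kept (21 arrays), 6 of the 7 passed there. In titles 41 to 64 they were nearer 0, -0.19, -0.36, -0.14 and -0.098. Some relations among the factors rested on a few arrays within the ranges: without the 2 farthest arrays r among the 6 factors ran from -0.44 to 0.84 in titles 1 to 30 and from 0.18 to 0.91 in titles 41 to 64.

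**Figure D5:**
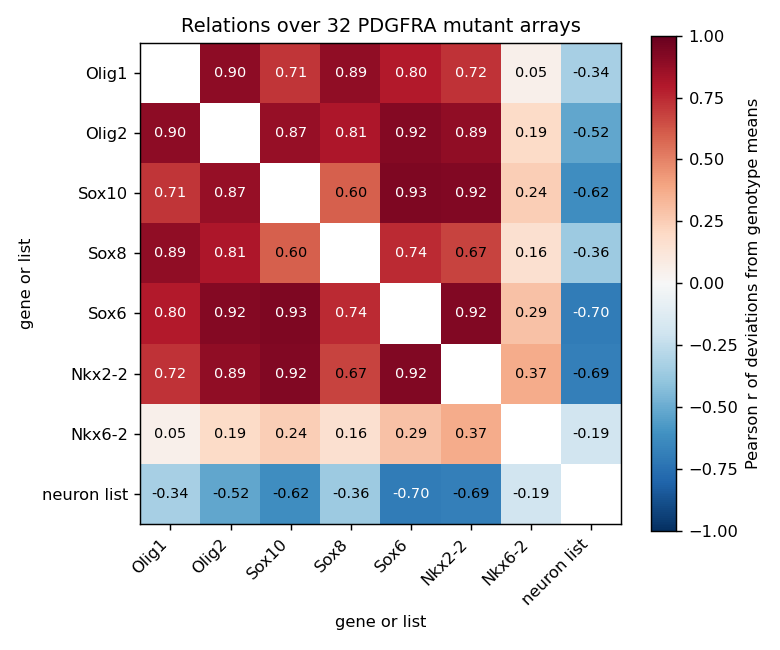
Pearson's r between deviations from genotype means over 32 mutant arrays, for each pair of factors and for each factor with the mean of the neuron list. The block of 6 factors holds values from 0.60 to 0.93, the row of Nkx6-2 values from 0.05 to 0.37 with other factors, and the neuron row values from -0.70 to -0.19.

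The genes most like each factor over the 45 arrays were found by Pearson's r among the 11809 kept genes, as a description, since the 7 low arrays shape all of these values. Olig1 and Olig2 were each other's nearest gene of all, at 0.97. Both lie on chromosome 16. Olig2 was also the nearest gene to Sox10 (0.95), and Sox10 the nearest to Nkx2-2 (0.95). Outside the list, Olig1 was most like Ptprz1 (0.96), a receptor phosphatase of progenitors, Sema3d (0.95) and Lhfpl3 (0.94), and without the 7 lowest arrays these were 0.93, 0.79 and 0.84. Olig2 was most like Pxdc1 (0.95), Traf4 (0.94) and Arhgap31 (0.94), and Sox10 most like Chadl (0.94), the myelin proteolipid relative Pllp (0.94) and Igsf9b (0.93). Sox6 was most like Pxdc1 (0.95), Myt1 (0.94), a zinc finger factor of progenitors, and Papss1 (0.94). Nkx2-2 was most like the plexin Plxnb3, Gltp, which transfers glycolipids, and Gal3st1, which makes the myelin lipid sulfatide, each at 0.94. Sox8 was most like Qk (0.91), an RNA-binding protein needed for myelination, Prkcq (0.91) and Rbmx (0.91). Nkx6-2 was most like Nfasc (0.78), an adhesion protein of nodes and paranodes, Efcab14 (0.77) and Rnd2 (0.73), and the nearest factor to it, Nkx2-2, ranked 186 among all genes at 0.50.

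Other genes of the pathway were described from lists of known function. Against EGFRvIII, 0 of 10 tested partner and neural progenitor transcription factors were called, with a median difference of -0.09 against -0.02 over all genes. Those with the smallest p were Nfib at -0.36 ± 0.15 (adjusted p = 0.123) and Sox9, a SoxE factor of glial specification, at -0.69 ± 0.31 (adjusted p = 0.139). None of the 7 tested differentiation and myelination factors was called; St18 was at 1.20 ± 0.46 (adjusted p = 0.0878). Of the repressors of oligodendrocyte differentiation, 1 of 5 was higher and 1 lower in the mutants, and both are Notch pathway effectors. Over all genes tested 3.55% were called higher and 5.35% lower. Hes5 rose by 1.40 ± 0.36 (adjusted p = 0.0131) and Hes1 fell by 0.97 ± 0.19 (adjusted p = 0.0022). Hes1 read 5.96, 7.02, 7.20, 7.36, 8.25, 7.48, 5.96 and 6.36 on the EGFRvIII arrays, and Hes5 4.36, 5.36, 4.54, 3.06, 3.87, 3.41, 6.53 and 5.24. The 3 EGFRvIII arrays low in the lineage factors were thus its highest for Hes1 and its lowest for Hes5. Without them Hes1 differed by -0.52 (adjusted p = 0.318) and Hes5 by 0.74 (adjusted p = 0.6). Within titles 41 to 64, which hold no C450 ins, D842V or E10 del array, Hes1 differed by -0.84 (adjusted p = 0.108). Without replicate 4, 5 or 6 alone the adjusted p of Hes5 was 0.0552, 0.0669 or 0.0582.

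Progenitor genes gave 0 called of 9 tested against EGFRvIII, with a median of 0.62. The matrix proteins Bcan and Tnr differed by 1.32 ± 0.47 (adjusted p = 0.0674) and 1.32 ± 0.49 (adjusted p = 0.0764), and the receptor Gpr17 by 1.62 ± 0.66 (adjusted p = 0.106). Gpr17 read 10.33, 11.28, 10.29, 7.20, 5.27, 6.08, 12.33 and 11.52 on the EGFRvIII arrays, lowest on the same 3 as the transcription factors. Of 14 tested myelin genes, 1 was higher and 0 lower by limma, where 3.55% of all genes tested were called higher and 5.35% lower. That gene, Fa2h, which hydroxylates myelin lipids, rose by 1.26 ± 0.37 (adjusted p = 0.0285). Fa2h differed by 0.46 (adjusted p = 0.747) without EGFRvIII replicates 4, 5 and 6. It was also lost without replicate 3, 5 or 6 alone, at an adjusted p of 0.053, 0.185 and 0.129. The median over the myelin list was 0.80, beside -0.02 over all genes tested and 0.845 over the neuron list.

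Among the mutants, calls on the pathway lists fell mainly on myelin genes. In E7 del, where the means of Olig1, Olig2, Sox10 and Sox6 were the highest of the mutants, 4 of 14 myelin genes were lower than in the other mutants and 0 were higher. Over all genes tested 0.237% were called lower and 0.119% higher. Aspa fell by 3.16 ± 0.58 (adjusted p = 0.00935), Mal by 2.91 ± 0.70 (adjusted p = 0.0475), Mog by 2.69 ± 0.63 (adjusted p = 0.0409) and Mbp, the myelin basic protein, by 2.41 ± 0.52 (adjusted p = 0.0269). The 9 tested neuron markers had a median difference of -2.83 in the same comparison with none called, beside -2.10 for the myelin list, and their part in the result was not tested. Mbp had its lowest E7 del reading at 7.46 and its highest at 12.27, and without replicate 2 its difference was -1.05 (adjusted p = 0.536). Without replicate 3 the adjusted p of Mbp was 0.0759. Of 53 alternatives, Aspa lost its call in 4, Mbp in 4, Mog in 12 and Mal in 33. In E10 del, 1 of 10 partner factors was lower, where 0.601% of all genes were called lower. Chd7, a chromatin remodeller that acts with Sox10, fell by 1.77 ± 0.40 (adjusted p = 0.0286). Chd7 had the highest E10 del value at 8.53 and the lowest at 5.52, and without replicate 1, 2 or 3 of that genotype its adjusted p was 0.321, 0.295 or 0.163. It was at -0.24 (adjusted p = 1) without the 4 E10 arrays and at -1.36 (adjusted p = 0.168) with the neuron list as a covariate. In D842V none of the lineage lists had a called gene, and Egr2, the only measured marker of Schwann cells, rose by 2.28 ± 0.41 (adjusted p = 0.00261), and by limma was at 1.98 (adjusted p = 0.0523) without D842V replicate 4. The probe sets of Pdgfra and Egfr, which were not matched to the constructs and check no label, differed between mutants and EGFRvIII by -0.43 ± 0.47 (adjusted p = 0.556) and -0.17 ± 0.37 (adjusted p = 0.793).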

How the data were processed

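RNA from 45 samples was hybridised to 1-colour Affymetrix arrays, 1 per sample. The deposited values are log2 signals for 45141 probe sets, summarised by the authors with RMA per the submitters' processing notes, whose version is not given in the sources used here; values ran from 1.46 to 13.82 and array medians from 4.66 to 4.85. RMA normalizes arrays together, so a shift common to most genes is removed. Of the probe sets, 28898 had 1 gene symbol, 551 several and 15692 none, and only the first kind was used, giving 17097 genes. Genes above the table median, 4.79, on at least 3 arrays were kept (11809). Groups came from the genotype label, and replicate numbers follow accession order only. Differences were fitted over all 8 genotypes with limma 3.58.1 (R 4.3.3), with Benjamini-Hochberg adjustment over the kept genes and a threshold of 0.05, after tests on simulated data. Relations used 100000 permutations within genotype (Python 3.11.15, numpy 2.4.6, pandas 2.3.3). The number of arrays limits the precision.

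The 8 genes and all lists were chosen with earlier results of these data known. Named in the text are the 8 genes, up to 4 genes of each pathway list with the smallest p, the 3 genes most like each factor (predicted, clone and numbered names left out), Pdgfra and Egfr. Mog, Mal, Aspa and Mbp fall under the list rule, and Egr2, a cell type marker, was named after its values were seen. Alternatives were no filter, the mean of a gene's probe sets, arrays centred on their median, a trended and robust prior, the title range as a block or alone, neuron markers as a covariate, and leaving out arrays.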

Additional observations from a re-analysis of the deposited data

Results flagged for a closer look

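Within genotypes of 4 to 10 arrays, 11 of 42 combinations of gene and genotype had an outlying array. The distance of such an array from the others was large for the range of its group. The 42 combinations are not independent, since most of the genes moved together, and the share over all genes was not computed. The count is therefore a description only. E10 del.v2 replicate 2 accounted for 6 of them. It read 10.29 for Olig1 against 12.91 to 13.33 on the other 8 arrays, 7.19 for Olig2 against 10.54 to 11.43, and 7.33 for Sox10 against 10.50 to 11.92. It read 6.96 for Sox8 against 10.10 to 10.88, 6.75 for Sox6 (highest of the others 10.86) and 4.76 for Nkx2-2 against 8.19 to 10.45. The same array had the highest neuron mean of its genotype, 11.74, and the part of neuronal RNA in these readings was not tested.

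D842V replicate 1 accounted for 4 more. It read 9.0 for Olig2 against 10.30 to 10.58 on the other 4 arrays, 8.5 for Sox8 against 9.75 to 9.92, 8.87 for Sox6 against 10.03 to 10.25 and 7.06 for Nkx2-2 against 9.05 to 9.44. Its neuron mean was 10.69. The last was D842V replicate 5 for Nkx6-2, 3.93 against 5.02 to 5.34.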

How the results depend on the processing

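No paired analysis was possible because the labels give no replicate numbers shared between genotypes. Against EGFRvIII, 0 of the 7 factors were called with all arrays, 1 with the neuron covariate, 1 without the 4 E10 arrays and 0 to 2 when arrays were left out in turn. Without EGFRvIII replicates 4, 5 and 6, Olig1 (-0.37), Olig2 (-0.60), Sox10 (-0.38), Sox8 (-0.047), Sox6 (-0.55) and Nkx2-2 (-0.22) reversed. For those genes these were the lowest arrays of EGFRvIII, so leaving them out could only lower the differences. With the 4 E10 arrays left out as well, a choice made after seeing the data, Olig1 (-0.10), Olig2 (-0.21) and Sox6 (-0.18) reversed. For E10 del, 1 factor was called without those EGFRvIII arrays and 0 to 5 when arrays were left out in turn, with differences of -1.30 to -0.71 for Olig1, -2.09 to -1.23 for Olig2, -2.40 to -1.47 for Sox10, -1.80 to -0.92 for Sox6 and -2.48 to -1.26 for Nkx2-2. Without the 4 E10 arrays Olig1 (0.28), Olig2 (0.25), Sox10 (0.16), Sox6 (0.45) and Nkx2-2 (0.83) reversed. For the title ranges 0 to 3 were called when arrays were left out in turn, and with the neuron covariate Sox10 (-0.17), Sox6 (-0.18) and Nkx2-2 (-0.051) reversed. The cause was not tested.

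Counts over all genes moved more. Against EGFRvIII they were 1051 with all arrays, 310 with the title block, 80 within titles 41 to 64, 54 without EGFRvIII replicates 4, 5 and 6, 57 without the 4 E10 arrays as well, and 185 (without EGFRvIII replicate 5) to 2239 (without replicate 1) when arrays were left out in turn. For E10 del they were 94, 0 with the block, within titles 1 to 30, with the neuron covariate or without the 4 E10 arrays, 36 with centred arrays, and 0 to 1653 when arrays were left out in turn. They were 313 without EGFRvIII replicates 4, 5 and 6. The F test gave 68 with all arrays, 14 with the block, 0 within titles 41 to 64, 223 within titles 1 to 30, 187 with the neuron covariate, 308 without those EGFRvIII arrays and 4 to 141 with arrays left out in turn. D842V gave 69, then 106 with no filter, 391 within titles 1 to 30, 386 with the covariate, 204 without those EGFRvIII arrays and 10 to 133. E7 del gave 42, then 80 with no filter, 2 with the block, 0 within titles 41 to 64, 114 with the covariate, 196 without those EGFRvIII arrays and 4 to 85. Titles 1 to 30 hold no EGFRvIII array and a title range alone cannot test itself, so those alternatives were not run. Within titles 41 to 64 the only mutants were V544ins, E10 del.v2 and E7 del, and titles 1 to 30 hold every mutant but E7 del. Counts within a range therefore compare fewer mutants than the counts with all arrays.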
